A study of Homo sapiens with 2 samples.

Results

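Integrin and laminin genes of PC9 cells were compared between a library from cells expressing TAZ4SA and a library from control cells. They were taken by gene symbol from a table of 16642 genes, as the numbered integrin α and β chains with αV, αE, αL, αM and αX and the laminin α, β and γ chains. The rule used names only and no measured value. It found 27 genes, of which 26 are described here: 10 integrin α chains, 8 integrin β chains and 8 laminin chains. Among family genes with names of that form, ITGA4, ITGA8, ITGA9, ITGA11, ITGAL, ITGAX, LAMA1, LAMB4 and LAMC3 had no row in the table.

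PC9 is an established human lung adenocarcinoma line driven by an activating EGFR mutation. The TAZ4SA line expresses an active mutant of TAZ, a transcriptional co-activator of the Hippo pathway that acts through TEAD factors. The control is labelled as PC9 parental or control cells. Per the labels' protocols, cells carried Tet-On plasmids delivered by lentivirus (the control pLVX-Tet-On Advanced plasmid, the pLVX-TP-3F-TAZ4SA plasmid, or both), and 50 ng/mL doxycycline was given for 24 h before RNA harvest. That text is shared by both samples, so whether the control cells also received doxycycline is not stated, and the labels do not say whether either line is 1 clone. Each group has 1 library, so no test of the conditions was possible. Every bracketed range below is a 95% interval of counting error, which does not include the spread between cultures.

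Integrins are receptors made of 1 α and 1 β chain that span the plasma membrane and tie the extracellular matrix to the actin or keratin cytoskeleton. The α chain largely sets the ligand: α3, α6 and α7 bind laminins, α1, α2, α10 and α11 bind collagens, and α5, α8 and αV bind RGD motifs in proteins such as fibronectin and vitronectin. Laminins are secreted trimers of 1 α, 1 β and 1 γ chain and the main adhesive proteins of basement membranes. In lung and other epithelia, laminin-332 anchors cells through α3β1 and through α6β4 in hemidesmosomes, while αVβ6 and αVβ8 release TGF-β from its latent complex.

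Summed over the genes of the table, the TAZ4SA library held 29668388 reads and the control library 47684754. The 26 genes took 0.715% of those reads in the TAZ4SA library against 0.731% in the control, from 13 to 57866 reads per gene in TAZ4SA and from 13 to 109411 in the control. WWTR1, which encodes TAZ, had 15628 normalized counts in the TAZ4SA library against 4933 in the control, a ratio of 3.17 (3.07 to 3.27). All 8 epithelial markers examined had rows, and they summed to 363156 normalized counts in TAZ4SA and 317953 in the control. Among markers of other cell types, the rows of 2 of 10 fibroblast markers summed to 554 in TAZ4SA and 538 in the control, and those of 4 of 10 endothelial markers to 2963 in TAZ4SA and 3338 in the control. Both libraries are labelled as PC9 cells, and whether cells of another type were present was not tested. These are bulk libraries, in which fewer cells of a type and less RNA per cell cannot be told apart.

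The following upstream sequences are shown for chains that the results below turn on, ITGA5 and LAMC1 among those higher in the TAZ4SA library and ITGB6 and ITGB8 among those lower. Each is the 250 bases before the gene's start in RefSeq on GRCh38.p14, on the gene's strand, and capitals mark GGAATG or its reverse complement, the core motif of TEAD factors. ITGA5 lies at chr12:54419267-54419516 on the minus strand, LAMC1 at chr1:183023170-183023419 on the plus strand, ITGB6 at chr2:160200273-160200522 on the minus strand and ITGB8 at chr7:20330650-20330899 on the plus strand.
ITGA5: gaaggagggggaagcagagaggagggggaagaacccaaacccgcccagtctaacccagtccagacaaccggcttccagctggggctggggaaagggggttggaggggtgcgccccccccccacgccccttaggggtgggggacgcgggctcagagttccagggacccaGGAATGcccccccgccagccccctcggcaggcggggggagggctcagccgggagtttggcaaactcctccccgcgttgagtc
LAMC1: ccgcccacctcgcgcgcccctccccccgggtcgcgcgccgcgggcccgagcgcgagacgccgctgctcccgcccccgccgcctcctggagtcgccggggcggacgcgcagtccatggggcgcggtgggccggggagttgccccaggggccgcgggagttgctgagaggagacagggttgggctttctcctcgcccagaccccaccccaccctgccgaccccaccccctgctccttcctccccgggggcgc
ITGB6: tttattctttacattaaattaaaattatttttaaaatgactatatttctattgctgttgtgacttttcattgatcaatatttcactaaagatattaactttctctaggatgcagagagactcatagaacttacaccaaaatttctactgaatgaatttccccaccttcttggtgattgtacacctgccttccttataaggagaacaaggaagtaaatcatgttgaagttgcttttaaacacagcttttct
ITGB8: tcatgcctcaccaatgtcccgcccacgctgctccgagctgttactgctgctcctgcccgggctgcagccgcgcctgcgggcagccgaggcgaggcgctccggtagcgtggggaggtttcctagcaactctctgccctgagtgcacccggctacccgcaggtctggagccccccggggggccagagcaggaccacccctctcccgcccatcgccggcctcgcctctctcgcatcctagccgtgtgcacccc
The ITGA5 window holds 1 match, which begins 82 bases before the start, and the other 3 windows hold none. RefSeq upstream windows were matched by symbol for 21 of the 26 members, and ITGA3, ITGA7, ITGB2, ITGB3 and ITGB4 had no entry. On both strands, GGAATG occurred in 4 of the 21 windows (ITGA5, ITGA10, ITGB1 and LAMA2), and in 9.50% of the 9517 windows matched to measured genes. The AP-1 motif TGANTCA, which is its own reverse complement and was also marked if present, occurred only in the LAMA3 window among the 21, with 2 matches, and in 3.96% of the 9517. A match describes letters in a window and was not tied to binding.

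Most chains lay within 1.5-fold of each other in the 2 libraries, with members on both sides. A gene was counted as measured if its mean normalized count over the libraries was at least 20, which held for 24 members and for 14074 genes of the table. ITGA7 and ITGA10 fell below that level. At 1.5-fold with a counting interval excluding a ratio of 1, ITGAM and LAMA2 were higher in the TAZ4SA library, while 4.19% of all measured genes were. ITGB3 and ITGB8 were lower by as much, against 4.47% of all measured genes. ITGAM and LAMA2 also passed 2-fold, against 1.93% of measured genes, and no member was 2-fold lower, against 1.61%. Both of these higher members passed the level filter through the TAZ4SA library alone, so no weight is placed on them.

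At a lower threshold, a ratio of at least 5 to 4 in either direction, LAMC1, LAMB3 and LAMA5 joined the higher members to make 5, with a background of 8.13%, and ITGB6 and LAMB2 joined the lower members to make 4, with a background of 9.94%. Counting intervals of any size excluded a ratio of 1 on the higher side for 11 members (background 24.5%) and on the lower side for 9 (background 25.2%). Of the members, 18 had a mean of at least 1000. Among the 7423 genes of that level, 32.0% were higher and 31.3% lower by the interval alone, as were 9 and 8 of the 18 members. At that level, 3 members passed the 5 to 4 ratio on the higher side (background 5.29%) and 3 on the lower side (background 7.17%).

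By class, the median log2 ratio of normalized counts with a pseudocount of 1, TAZ4SA over control, was 0.25 for 8 laminin chains, 0.14 for 8 integrin α chains and -0.22 for 8 integrin β chains, beside 0.00019 for all measured genes. Over all 24 measured members the median was 0.069, with 13 above 0 and 11 below. Laminin chains were above 0 for 6 of 8 genes, α chains for 5 of 8 and β chains for 2 of 8. These medians and counts include ITGAM and LAMA2 and are a description only.

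**Figure D1:**
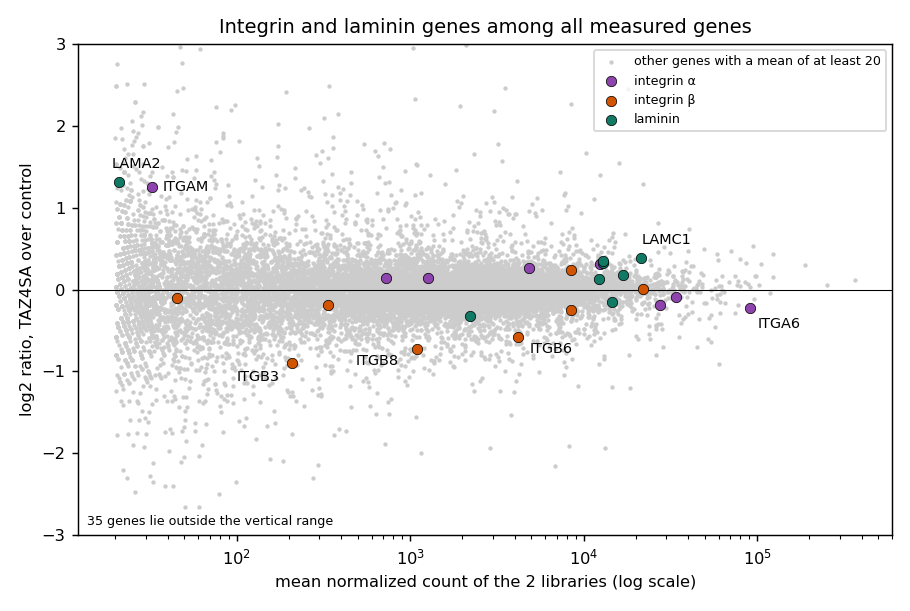
Each point is a measured gene (mean of at least 20), plotted by that mean (x, log scale) and by its log2 ratio, TAZ4SA over control (y, cropped at 3, with 35 genes outside). Integrin α, integrin β and laminin genes are coloured; most lie inside the grey cloud, while ITGB3, ITGB8 and ITGB6 lie toward its lower edge and LAMC1 toward its upper edge.

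For single genes, the spread of all genes at the same level gives a scale. Between means of 1000 and 10000, the central range of log2 ratios from the 5th to the 95th percentile ran from -0.39 to 0.33 over 6558 genes, and ITGB6 and ITGB8 lay below it. Above 10000, where 865 genes ran from -0.42 to 0.36, LAMC1 lay above the range and the other 10 members lay inside it. Between 100 and 1000 the range was -0.61 to 0.57, and ITGB3 lay below it. Between 20 and 100 it was -1.03 to 1.11, and ITGAM and LAMA2 lay above it. Both passed the level filter through the TAZ4SA library alone, so no weight is placed on their position.

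Of the laminin-binding α chains, ITGA6 and ITGA3 were abundant and slightly lower with TAZ4SA, and ITGA7 had few reads. ITGA6 (ENSG00000091409), the α partner of both β1 and β4, had 83936 normalized counts in the TAZ4SA library against 98444 in the control, or 1.17-fold lower (1.16 to 1.18). ITGA3 (ENSG00000005884), a laminin-332 and laminin-511 receptor chain, had 33137 in TAZ4SA and 35332 in the control, or 1.07-fold lower (1.05 to 1.08). ITGA7 (ENSG00000135424), best known from muscle, had only 16 reads in TAZ4SA and 13 in the control, and its interval included a ratio of 1.

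Of the collagen-binding chains, ITGA2 (ENSG00000164171) was abundant, with 25803 normalized counts in TAZ4SA and 29534 in the control, 1.14-fold lower (1.12 to 1.17). ITGA1 (ENSG00000213949) was far less abundant, with 759 in TAZ4SA and 688 in the control, a ratio of 1.10 (0.984 to 1.23). The gene PELO overlaps ITGA1 on the same strand, and the sources used here do not say how reads of overlapping genes were assigned. ITGA10 (ENSG00000143127) had 13 reads in TAZ4SA and 18 in the control, with an interval that included a ratio of 1.

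The RGD-binding α chains differed in the other direction. ITGA5 (ENSG00000161638), which pairs with β1 as the classical fibronectin receptor, had 13703 normalized counts in TAZ4SA and 11039 in the control, a ratio of 1.24 (1.21 to 1.28). ITGAV (ENSG00000138448), which pairs with β1, β3, β5, β6 and β8, had 5257 in TAZ4SA and 4390 in the control, a ratio of 1.20 (1.15 to 1.2503). Both α chains with an RGD-type ligand were thus higher in the TAZ4SA library, while the 3 abundant chains for laminin and collagen, ITGA6, ITGA3 and ITGA2, were lower.

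Integrin α chains that are typical of leukocytes had 2 members in the table. ITGAE (ENSG00000083457), the αE chain that binds E-cadherin as αEβ7, had 1339 normalized counts in TAZ4SA and 1211 in the control, a ratio of 1.11 (1.02 to 1.20). These come from 923 reads in TAZ4SA and 1346 in the control. The gene HASPIN overlaps ITGAE on the opposite strand, with 1261 reads in TAZ4SA and 1790 in the control. Whether the counting used strand is not given. ITGAM (ENSG00000169896), the αM chain of the complement receptor on myeloid cells, had 46.4 in TAZ4SA and 18.9 in the control, from 32 reads in TAZ4SA and 21 in the control, a ratio of 2.46 (1.37 to 4.48). Of 12 leukocyte markers, 4 had rows (CORO1A, CSF1R, CD68 and LYZ), which summed to 135 normalized counts in TAZ4SA and 151 in the control. PTPRC, the gene of the pan-leukocyte protein CD45, had no row in the table. Both libraries are labelled as PC9 cells, and whether leukocytes contributed to the ITGAM value was not tested.

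**Figure D2:**
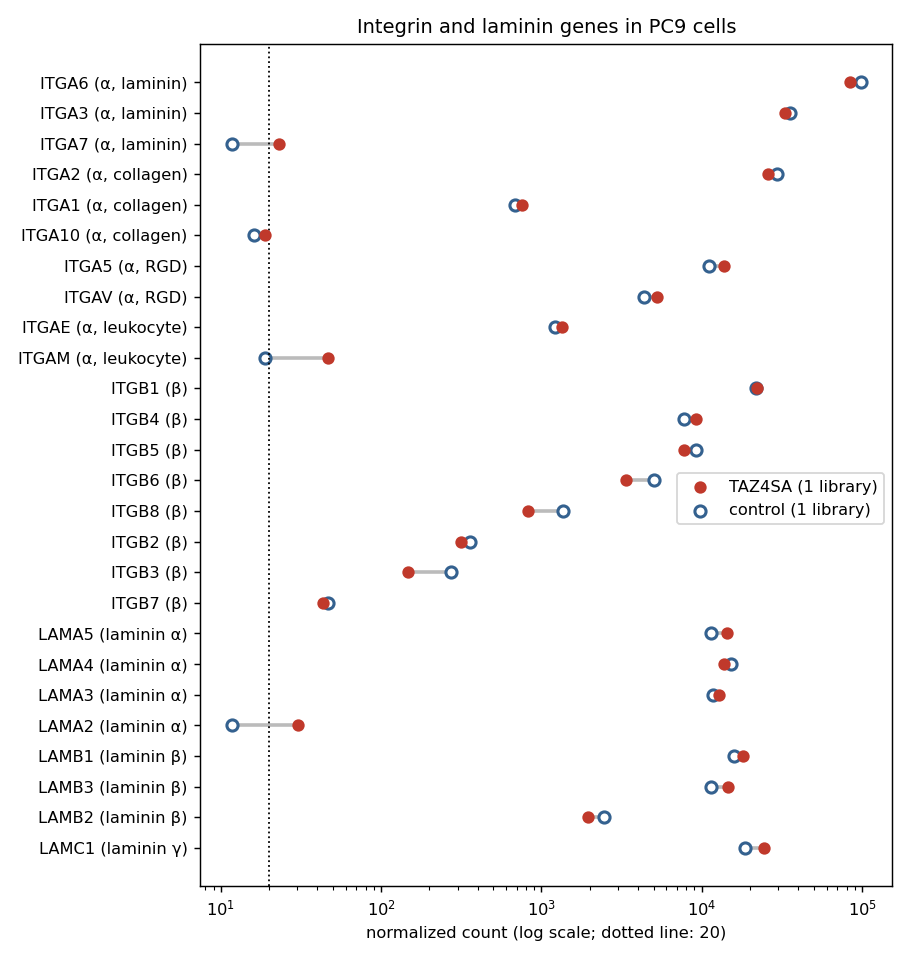
Normalized counts (log scale) of the 26 genes in the TAZ4SA library (filled red) and the control library (open blue), 1 library each, grouped by role. The pairs of points lie close together for most chains, and the gaps are widest for ITGAM, LAMA2, ITGA7, ITGB3, ITGB8 and ITGB6.

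Among the β chains, the common partner ITGB1 did not stand apart between the libraries, whereas the 4 chains that pair with αV in place of β1 were all lower with TAZ4SA. ITGB1 (ENSG00000150093) had 22041 normalized counts in TAZ4SA and 21861 in the control, a ratio of 1.01 (0.988 to 1.03). Its pseudogene ITGB1P1 had 12 reads in TAZ4SA and 13 in the control.

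ITGB5 (ENSG00000082781), the β chain of the vitronectin receptor αVβ5, had 7707 normalized counts in TAZ4SA and 9140 in the control, 1.19-fold lower (1.15 to 1.23). ITGB6 (ENSG00000115221), an epithelial chain that forms the TGF-β activating receptor αVβ6, had 3372 in TAZ4SA and 5043 in the control, 1.495-fold lower (1.42 to 1.57), just short of the 1.5-fold call. After random thinning of the control library to the same depth, ITGB6 had a log2 ratio of -0.62 and passed it. ITGB8 (ENSG00000105855), whose receptor αVβ8 also activates TGF-β, had 824 in TAZ4SA and 1360 in the control, 1.65-fold lower (1.498 to 1.82).
ITGB3 (ENSG00000259207), the β chain of αVβ3 and of the platelet fibrinogen receptor, had 147 in TAZ4SA and 273 in the control, 1.86-fold lower (1.48 to 2.35). It was the lowest in level of these chains, at 101 reads in TAZ4SA and 303 in the control. The median log2 ratio over ITGB3, ITGB5, ITGB6 and ITGB8 was -0.65, beside 0.00019 for all measured genes.

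To compare levels between genes, normalized counts were divided by the length of the gene's merged exons in kilobases. On that scale the 4 chains summed to 2003 normalized counts per kb in TAZ4SA and 2645 in the control, 1.32-fold lower (1.29 to 1.36), while ITGAV had 640 per kb in TAZ4SA and 535 in the control. ITGB5 was the most abundant of the 4, at 1195 per kb in TAZ4SA and 1418 in the control, and ITGB6 followed at 720 in TAZ4SA and 1076 in the control. ITGB8 and ITGB3 were minor chains, at 54.4 and 33.3 per kb in TAZ4SA and 89.8 and 62.0 in the control. The order of the 4 was the same in both libraries. The ratio of ITGAV to ITGB6 per kb was 0.890 in TAZ4SA and 0.497 in the control. Which of them was higher in TAZ4SA depended on the length used. With the longest transcript as length, ITGAV and ITGB6 had 748 and 721 per kb in TAZ4SA and 624 and 1079 in the control.

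**Figure D3:**
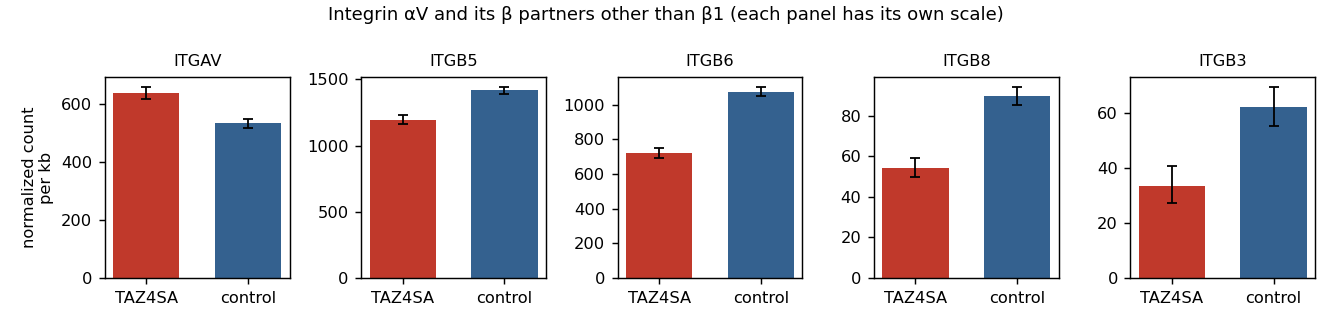
Normalized counts per kb of merged exons for ITGAV and for ITGB5, ITGB6, ITGB8 and ITGB3, with TAZ4SA at left and control at right in each panel; bars are 1 library each and error bars are 95% counting intervals. ITGAV is higher in TAZ4SA and each of the 4 β chains is lower, and no interval overlaps between the 2 libraries.

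ITGB4 (ENSG00000132470), the β chain of hemidesmosomes that pairs only with α6, had 9157 normalized counts in TAZ4SA and 7793 in the control, a ratio of 1.18 (1.14 to 1.21). Of the β chains typical of leukocytes, ITGB2 (ENSG00000160255), the CD18 chain, had 315 in TAZ4SA and 358 in the control, a ratio of 0.879 (0.742 to 1.04). The antisense gene ITGB2-AS1 overlaps it and had 19 reads in TAZ4SA and 16 in the control, and whether the counting used strand is not given. ITGB7 (ENSG00000139626), the partner of α4 and αE, had 30 reads in TAZ4SA and 52 in the control, and both intervals included a ratio of 1. The gene ZNF740 overlaps ITGB7 on the opposite strand, with 1511 reads in TAZ4SA and 3114 in the control.

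Receptor by receptor, 15 α and β pairs known to assemble had both chains among the members. The difference of their log2 ratios without a pseudocount, α minus β, is given with a Wald counting interval. The α5β1 pair had a difference of 0.30 (0.25 to 0.35), and the αVβ1 pair one of 0.25 (0.18 to 0.32). The other abundant β1 receptors lay below 0, at -0.24 for α6β1 (-0.27 to -0.21), -0.21 for α2β1 (-0.25 to -0.17) and -0.10 for α3β1 (-0.14 to -0.067).
In the pairs of αV, the difference was 0.51 for αVβ5 (0.43 to 0.58), 0.84 for αVβ6 (0.75 to 0.93), 0.98 for αVβ8 (0.83 to 1.14) and 1.16 for αVβ3 (0.83 to 1.49). In all 4, ITGAV was higher and the β chain lower in TAZ4SA. These 4 differences share the ITGAV values, as the 8 β1 pairs share those of ITGB1.
The α6β4 pair went the other way, at -0.46 (-0.51 to -0.41): ITGA6 exceeded ITGB4 by 9.49 times per kb in TAZ4SA and by 13.1 times in the control. The αMβ2 pair had a difference of 1.48 (0.65 to 2.31) and rests on the few reads of ITGAM. The intervals of α1β1, α7β1, α10β1 and αEβ7 included 0.

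**Figure D4:**
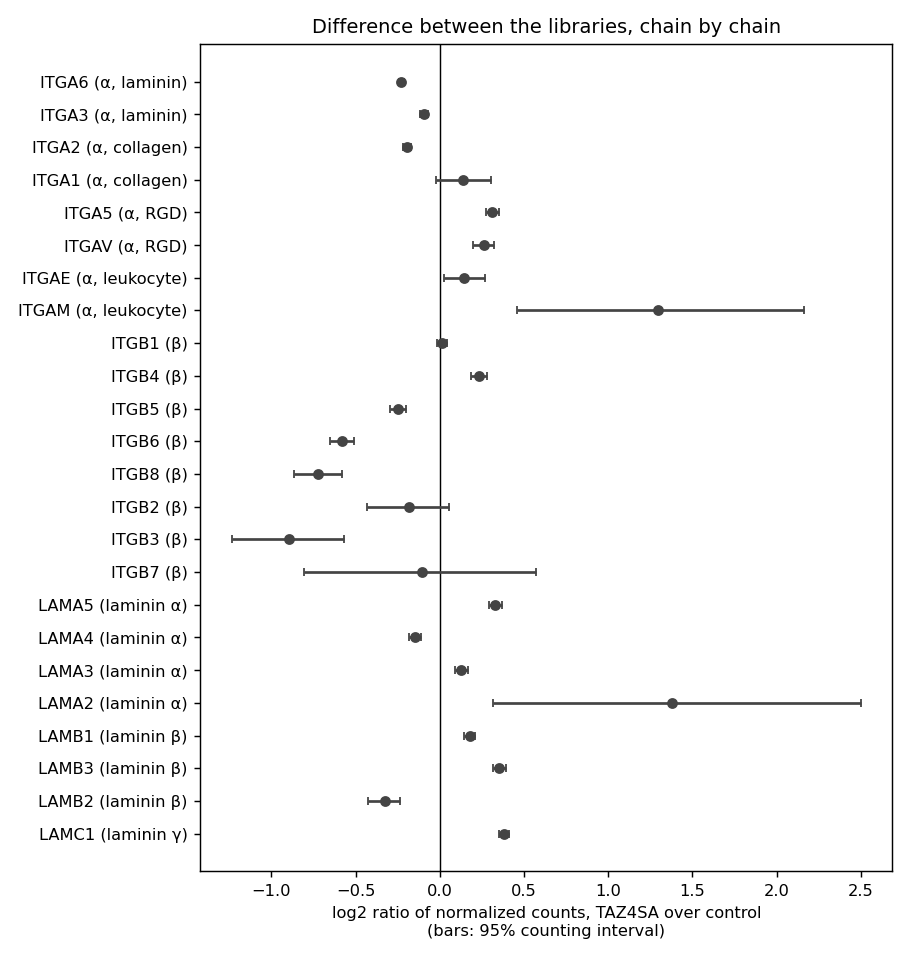
Log2 ratio of normalized counts without a pseudocount, TAZ4SA over control, for the 24 members with a mean of at least 20 (points) with 95% counting intervals (bars), by role. ITGB5, ITGB6, ITGB8 and ITGB3 lie left of 0, 6 laminin chains lie right of 0 with LAMA4 and LAMB2 left of it, and the wide bars belong to chains with few reads.

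All 3 chains of laminin-511, a trimer typical of epithelial basement membranes, were higher in the TAZ4SA library by small amounts, and so were LAMA3 and LAMB3, the α and β chains of laminin-332. LAMA3 (ENSG00000053747) had 12892 normalized counts in TAZ4SA and 11808 in the control, a ratio of 1.09 (1.06 to 1.12). LAMB3 (ENSG00000196878) had 14581 in TAZ4SA and 11412 in the control, a ratio of 1.28 (1.24 to 1.31).

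In laminin-511, LAMA5 (ENSG00000130702) had 14414 normalized counts in TAZ4SA and 11465 in the control, a ratio of 1.26 (1.22 to 1.29). LAMB1 (ENSG00000091136) had 18002 in TAZ4SA and 15927 in the control, a ratio of 1.13 (1.10 to 1.16). LAMC1 (ENSG00000135862), the γ chain shared by most laminins, had 24335 in TAZ4SA and 18670 in the control, a ratio of 1.30 (1.28 to 1.33), the highest of the members with a mean over 1000. LAMA5 shares its locus with ADRM1 and LAMB1 with DLD, on the opposite strand in both cases.

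The chains specific to other trimers went differently. LAMA4 (ENSG00000112769), the α chain of vascular laminin-411 and laminin-421, had 13777 normalized counts in TAZ4SA and 15263 in the control, 1.11-fold lower (1.08 to 1.14). LAMB2 (ENSG00000172037), which takes the place of β1 in a further set of trimers, had 1954 in TAZ4SA and 2454 in the control, 1.26-fold lower (1.18 to 1.34). LAMA2 (ENSG00000196569), the α chain of muscle laminin, had 30.5 in TAZ4SA and 11.7 in the control, from 21 reads in TAZ4SA and 13 in the control, a ratio of 2.60 (1.24 to 5.66).
Among markers of endothelial cells, which make LAMA4, CDH5 stood at 1362 normalized counts in TAZ4SA and 1589 in the control and ESAM stood at 869 in TAZ4SA and 1069 in the control, 1.17-fold and 1.23-fold lower. EGFL7 stood at 725 in TAZ4SA and 662 in the control, a ratio of 1.10 (0.976 to 1.23), and VWF had 5 reads in TAZ4SA and 20 in the control. Both libraries are labelled as PC9 cells, a lung adenocarcinoma line, and whether endothelial cells contributed to the LAMA4 value was not tested. PECAM1 had no row in the table.

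Per kb of merged exons, the α chain was the least abundant chain of laminin-511 in both libraries, and LAMA3 was less abundant than LAMB3. LAMA3 had 878 normalized counts per kb in TAZ4SA and 805 in the control. LAMB3 had 3110 in TAZ4SA and 2434 in the control. The gap between these 2 chains depends on length, as LAMA3 was divided by 14678 bases of merged exons and LAMB3 by 4688. A shorter LAMA3 transcript would have a higher level per kb, and which transcripts were expressed was not tested. LAMA5 had 1009 per kb in TAZ4SA and 802 in the control. LAMB1 had 2212 in TAZ4SA and 1957 in the control, and LAMC1 had 2895 in TAZ4SA and 2221 in the control. In laminin-421 and laminin-521, LAMB2 was the least abundant chain, at 285 per kb in TAZ4SA and 357 in the control. Summed per kb, the 3 β chains reached 5606 in TAZ4SA and 4748 in the control, a ratio of 1.18 (1.16 to 1.20). The 4 α chains summed to 3080 in TAZ4SA and 2926 in the control, a smaller ratio of 1.05 (1.04 to 1.07), since LAMA4 was lower.

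**Figure D5:**
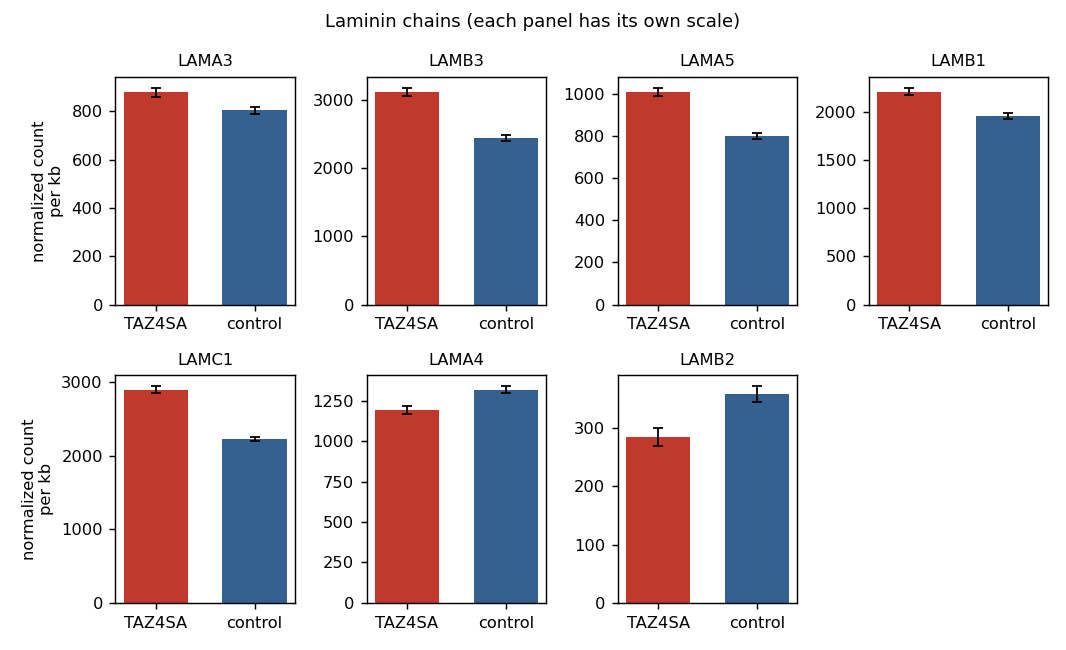
Normalized counts per kb of merged exons for 7 laminin chains, TAZ4SA at left and control at right, 1 library each, with 95% counting intervals. LAMA3, LAMB3, LAMA5, LAMB1 and LAMC1 are higher in TAZ4SA, and LAMA4 and LAMB2 are lower.

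The order of levels per kb was nearly the same in both libraries. ITGA6 led with 12848 per kb in TAZ4SA and 15069 in the control. ITGB1 came next in TAZ4SA at 3667 per kb, ahead of ITGA3 at 3381 and ITGA2 at 3262. In the control ITGA2 came next at 3734, ahead of ITGB1 at 3637 and ITGA3 at 3605, and the intervals of ITGB1 and ITGA3 overlapped there. The order of these 3 depended on the length used. With the longest transcript as length, ITGA3 led ITGB1 and ITGA2 in both libraries. In TAZ4SA they then had 6048, 5825 and 3279 per kb, and in the control 6449, 5777 and 3753. ITGB6 took position 14 in TAZ4SA and 12 in the control, while ITGB4 took position 9 in TAZ4SA and 11 in the control. The change of position of ITGB4 also depended on the length used. With the longest transcript, ITGB4 lay below ITGB5 and LAMA4 in both libraries. In TAZ4SA these 3 had 1547, 1763 and 2104 per kb, and in the control 1317, 2091 and 2331. In TAZ4SA, ITGB5 and LAMA4 overlapped, as did the neighbours ITGB8, ITGB2, ITGA1 and ITGB3 and the 5 lowest genes from ITGB7 to LAMA2. In the control, ITGA5 and ITGB5, LAMA3 and LAMA5, ITGB3 and ITGB2, and the 4 lowest genes had neighbours that overlapped.

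Of 20 measured genes for integrin activators and the adhesome core, which link integrins to the cytoskeleton, 1 reached 1.5-fold on the higher side (background 4.19%) and 0 on the lower side (background 4.47%). That count is near the background, and the median log2 ratio was 0.048. Of the kindlins, which bind β tails and activate integrins, FERMT2 and FERMT1 were on opposite sides. FERMT2 had 1838 normalized counts in TAZ4SA and 1051 in the control, a ratio of 1.75 (1.61 to 1.90). The epithelial FERMT1 had 8832 in TAZ4SA and 11802 in the control, 1.34-fold lower. The third kindlin gene, FERMT3, had 26 reads in TAZ4SA and 27 in the control, a ratio of 1.55 (0.870 to 2.76). The adaptor gene TNS3 was 1.19-fold lower and the kinase gene SRC 1.16-fold lower.

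Among 7 genes of hemidesmosomes and laminin-binding tetraspanin partners, 1 reached 1.5-fold on the higher side (background 4.19%) and 0 on the lower side (background 4.47%), and the median log2 ratio was 0.12. The plakins PLEC and DST, which tie α6β4 to keratin filaments, had 46829 and 13612 normalized counts in TAZ4SA and 38468 and 10588 in the control, ratios of 1.22 (1.20 to 1.24) and 1.29 (1.251 to 1.32). The tetraspanin gene CD82 had 174 in TAZ4SA and 99.0 in the control, a ratio of 1.76 (1.35 to 2.30), and CD9 was 1.12-fold lower. COL17A1, which encodes the hemidesmosomal collagen XVII, had 180 in TAZ4SA and 214 in the control, a ratio of 0.840 (0.670 to 1.05). ITGB4 and both plakin genes were thus higher in TAZ4SA, ITGA6 was lower, and the interval of COL17A1 included a ratio of 1.

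Of 13 measured genes for other basement membrane proteins and non-integrin laminin receptors, 2 reached 1.5-fold on the higher side (background 4.19%) and 0 on the lower side (background 4.47%). The median log2 ratio was 0.089, and it was 0.029 both unfiltered and at a minimum mean of 100. The type IV collagen genes COL4A4 and COL4A3 had 232 and 52.2 normalized counts in TAZ4SA and 114 and 25.2 in the control, ratios of 2.03 (1.60 to 2.58) and 2.07 (1.23 to 3.53). COL4A1 was 1.33-fold lower, at 251 in TAZ4SA and 334 in the control. DAG1, encoding the laminin receptor dystroglycan, had 13179 in TAZ4SA and 17120 in the control, 1.30-fold lower.

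Several ligands of integrins differed by more than any receptor chain with a mean over 1000. Of 21 measured ligand genes outside the laminins and basement membrane, 10 reached 1.5-fold on the higher side (background 4.19%) and 1 on the lower side (background 4.47%). The median log2 ratio was 0.50, and 0.78 at a minimum mean of 100. FN1, the ligand of α5β1, had 30623 normalized counts in TAZ4SA and 5622 in the control, a ratio of 5.45 (5.30 to 5.60). CYR61 and CTGF, matricellular ligands of αV and α6 integrins that are classical targets of TAZ and YAP, had ratios of 4.80 (4.62 to 5.001) and 14.7 (6.76 to 38.1), and ICAM1, a ligand of β2 integrins, one of 4.53 (4.25 to 4.85). CTGF rests on 64 reads in TAZ4SA and 7 in the control. It passed the level filter through the TAZ4SA library alone, so no weight is placed on its ratio. The 10 genes include FN1, CYR61, CTGF and ICAM1, whose values were known when the list was drawn up, so neither they nor the count are independent support.
Some further ligands of αV integrins were chosen after their values were seen. TNC, encoding tenascin-C, had 3813 normalized counts in TAZ4SA and 1957 in the control, and MFGE8 had 1242 in TAZ4SA and 532 in the control. THBS1, also in the ligand list, had 23832 in TAZ4SA and 8162 in the control, a ratio of 2.92 (2.85 to 2.996). SPP1, encoding osteopontin, went the other way, at 6649 in TAZ4SA and 9726 in the control, 1.46-fold lower. Over the 21 measured ligand genes, 15 had log2 ratios above 0 and 6 below.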

How the data were processed

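RNA sequencing of 2 libraries, 1 per group, was used. Tools listed in the submitters' processing notes are STAR, HTSeq, Trim Galore and DESeq2, with the GRCh37 build and no versions or roles. Per the file headers, the deposited table gives normalized counts (signal values) and a log2 fold change. The values show that the authors divided each library's reads by 1 size factor: 100% of values in both columns were whole multiples of the column's step within 0.01 reads, with factors of 0.689 for TAZ4SA and 1.11 for the control. The authors' deposited log2 fold change differed from the log2 ratio of the columns by at most 0.000136.

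Recovered reads gave exact conditional binomial 95% intervals of ratios (Clopper-Pearson). They cover counting error only. They also treat reads as independent molecules, which reads are not, so they can be too narrow even for that error. Fold is the ratio of normalized counts, and log2 ratios use a pseudocount of 1, which understates differences of low genes. No count test was run and 0 genes were called by one, as each group has 1 library. Lengths are merged exons of GENCODE 29 (GRCh38), matched by Ensembl identifier; upstream sequences are from RefSeq (GRCh38.p14). The values of 1 gene that the rule finds are not reported here. The other members are all named, and from each further list the up to 4 measured genes with the largest absolute log2 ratio whose interval excluded a ratio of 1. The members and lists were chosen with earlier results of these data known. The steps were tested on simulated counts. Alternatives covered scaling (edgeR 4.0.16 and DESeq2 1.42.0, for factors only), pseudocount, filter, fold, thinning of control reads and length. Calculations ran in R 4.3.3 and Python 3.11.15 with scipy 1.17.1, pandas 2.3.3 and numpy 2.4.6.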

Additional observations from a re-analysis of the deposited data

How the results depend on the processing

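The log2 ratios of the 26 members kept their direction and stayed within their counting intervals in all 182 alternative values, from 4 other scalings, pseudocounts of 0.5 and 5 and thinning of control reads to the TAZ4SA total. Under the other scalings the all-gene median moved by -0.00438 to 0.00337. The number of members at least 1.5-fold higher, 2, became 0 with a mean of at least 100, since ITGAM and LAMA2 leave, and 5 at a ratio of 5 to 4; the number lower, 2, became 4 at that ratio, 0 at 2-fold and 3 with thinning, where ITGB6 joins. The median over members, 0.069, was 0.012 with a mean of at least 100 and 0.13 when no filter was applied, and their mean was 0.055. A median was read as moved when it left the span of the counting intervals of its middle genes, a rule chosen after seeing the data. With the longest transcript as length, 12 of the 26 members kept their rank in the TAZ4SA library and none moved by more than 2 places. Among the lists, without a filter ITGA2B joined ITGBL1 and their median became 0.40 in place of -0.10, and with a mean of at least 100 only COL1A1 remained of the 2 fibroblast markers, 0.25 in place of -0.36. The leukocyte marker median, 0.29, changed sign in 3 settings. It was -0.23 at a minimum mean of 100, where CORO1A alone remains, and -0.52 when unfiltered, where CD68 and LYZ join CORO1A and CSF1R. After thinning it was -0.077, for a cause that was not tested. For the basement membrane list, 1 in place of 2 genes was at least 1.5-fold higher with thinning or with a mean of at least 100, and the median of 0.089 became 0.029 at that level and when unfiltered. At that level the ligand list had 0 in place of 1 gene at least 1.5-fold lower and a median of 0.78 in place of 0.50, and the fibroblast markers also had 0 in place of 1. No paired analysis was possible because there is 1 library per group, and leaving out a library was not possible either. Depth limits ITGA7, ITGA10, ITGAM, ITGB7 and LAMA2 most, each with 13 to 52 reads per library.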

Other observations

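Genes that carry an integrin name but lie outside the rule were close to even between the libraries or had few reads. ITGBL1, a secreted protein with integrin-like repeats, had 4093 normalized counts in TAZ4SA and 4397 in the control, 1.07-fold lower. ITGB1BP1, which restrains β1 activation, had 4559 in TAZ4SA and 4407 in the control, with an interval of the ratio from 0.989 to 1.08. ITGA2B, the platelet αIIb chain, had 11 reads in TAZ4SA and 9 in the control, and ITGAD had no row in the table. Of the epithelial markers, KRT18 and KRT8 were 1.38-fold (1.37 to 1.40) and 1.30-fold (1.28 to 1.31) higher in TAZ4SA, CDH1, encoding the αEβ7 ligand E-cadherin, was 1.21-fold (1.18 to 1.24) higher, and CLDN4 was 1.31-fold lower. Both fibroblast markers with rows differed in opposite directions, COL1A1 at 490 normalized counts in TAZ4SA and 413 in the control and COL6A3 at 63.8 in TAZ4SA and 125 in the control.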
